A study of Homo sapiens with 8 samples.

Results

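The 10 genes described here code for the subunits of NF-kappaB (NFKB1, NFKB2, RELA, RELB and REL), for inhibitors that hold it back (NFKBIA, NFKBIE and TNFAIP3), and for BIRC3 and ICAM1, which are among its targets. They were chosen by gene symbol, and all 10 were found among the 21059 genes of the table. RNA was sequenced from MDA-MB-157, an established human breast cancer cell line, so all 8 libraries come from 1 line. Low glucose is 4 libraries of cells given 5 mM glucose and high glucose 4 libraries of cells given 25 mM, in both groups for 48 hours and in a medium that lacked serum. None of the libraries is from cells given another sugar at the same osmolarity, so glucose and osmolarity cannot be told apart. Libraries held an estimated 9721718 to 12482500 reads, and levels are in CPM, read counts scaled to a common library size, in which 1 read is worth 0.0706 to 0.0889 CPM. The labels do not say whether replicates were separate cultures, and p-values then measure only the spread between these libraries, which may be technical.

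NF-kappaB proteins are transcription factors that work as pairs of subunits. NFKB1 and NFKB2 code for long precursors that are cut to the DNA-binding p50 and p52, whereas RELA, RELB and REL carry the activating part of the pair. In resting cells, inhibitors of the IkappaB family such as the products of NFKBIA and NFKBIE keep the pairs in the cytoplasm, and signals from cytokine receptors have the inhibitors degraded. Several of the genes turned on are themselves part of the pathway, among them NFKBIA, TNFAIP3 and NFKB1, which makes a feedback loop. In breast cancer, the pathway is known for inflammatory gene expression and cell survival.

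NF-kappaB binds a DNA element called the kappaB site. Promoter stretches that match it are shown for 5 of the genes, since it is the element through which the pathway is known to act on its own members and targets. The stretch of ICAM1 matches only a shorter form of the motif, described below them. The stretches below are from RefSeq promoters on GRCh38.p14, run 5′ to 3′ on the strand of the gene, and carry the matched motif in capitals. They lie at chr4:102501295-102501334 (NFKB1, plus strand), chr2:60881512-60881551 (REL, plus), chr14:35404806-35404845 (NFKBIA, minus), chr11:102317270-102317309 (BIRC3, plus) and chr19:10270919-10270957 (ICAM1, plus), all before the start of transcription.
NFKB1: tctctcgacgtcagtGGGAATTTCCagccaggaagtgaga
REL: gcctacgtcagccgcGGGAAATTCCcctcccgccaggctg
NFKBIA: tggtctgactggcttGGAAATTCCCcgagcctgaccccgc
BIRC3: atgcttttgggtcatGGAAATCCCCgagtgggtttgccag
ICAM1: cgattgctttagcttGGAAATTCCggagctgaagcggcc

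A promoter of 250 bases before to 50 after the start was held for 8 of the 10 genes. The kappaB consensus of 10 bases, searched on both strands, was found for 6 of these 8 genes (NFKB1, NFKB2, REL, NFKBIA, TNFAIP3 and BIRC3), and for 7.09% of the 27305 genes with a promoter. The matches of NFKB2 included GGGAATTCCC and those of TNFAIP3 included GGAAATCCCC, both at starts downstream of the first base of the gene, and they are given without flanks. The shorter motif GGAAATNCC, chosen after the sequences had been seen and overlapping the consensus, was found for 6 of the 8 (NFKB1, REL, NFKBIA, TNFAIP3, BIRC3 and ICAM1) and for 1.75% of all genes with a promoter. By promoter, since a gene can have several, the consensus was in 7 of the 12 promoters of these genes and in 5.91% of all 35116, and the shorter motif in 6 of the 12 and in 1.44%. Because the shorter motif was chosen with these promoters in view, its counts cannot be weighed against the shares of all genes or promoters. A match describes the letters in this window and does not show that the site is bound. Of the genes with the consensus, NFKB1, NFKBIA and BIRC3 were higher at high glucose, while NFKB2, REL and TNFAIP3 did not pass the test described below. RELA, which was higher, had neither motif in this window. Whether a match goes with a rise was not tested.

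Of the 10 genes, 6 were higher at 25 mM than at 5 mM glucose (NFKB1, RELA, NFKBIA, NFKBIE, BIRC3 and ICAM1), and these were the 6 whose levels did not overlap between the groups. None was lower by limma, at an adjusted or an unadjusted p under 0.05. The rise ranged from 1.14-fold for RELA to 3.76-fold for BIRC3. The other 4 (NFKB2, RELB, REL and TNFAIP3) did not pass the test, though REL did when 1 library was set aside. Much of the transcriptome differed between the groups, with 46.8% of all genes called at an adjusted p under 0.05, made up of 22.0% higher and 24.8% lower. All 4 high glucose libraries lay above all 4 low glucose libraries for 20.9% of all genes. Among 11297 genes with a mean of at least 5 CPM, fitted on their own, 8120 were called, 4043 higher (35.8%) and 4077 lower. In that fit, 6 of the 8 members at that level were called higher (NFKB1, RELA, REL, NFKBIA, NFKBIE and ICAM1). REL passed there although its groups overlapped, and in the fit of all genes 5 of these 8 were called. The median change of the 10 genes was 0.49 on the log2(CPM + 1) scale, beside -0.0092 for all genes.

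**Figure D1:**
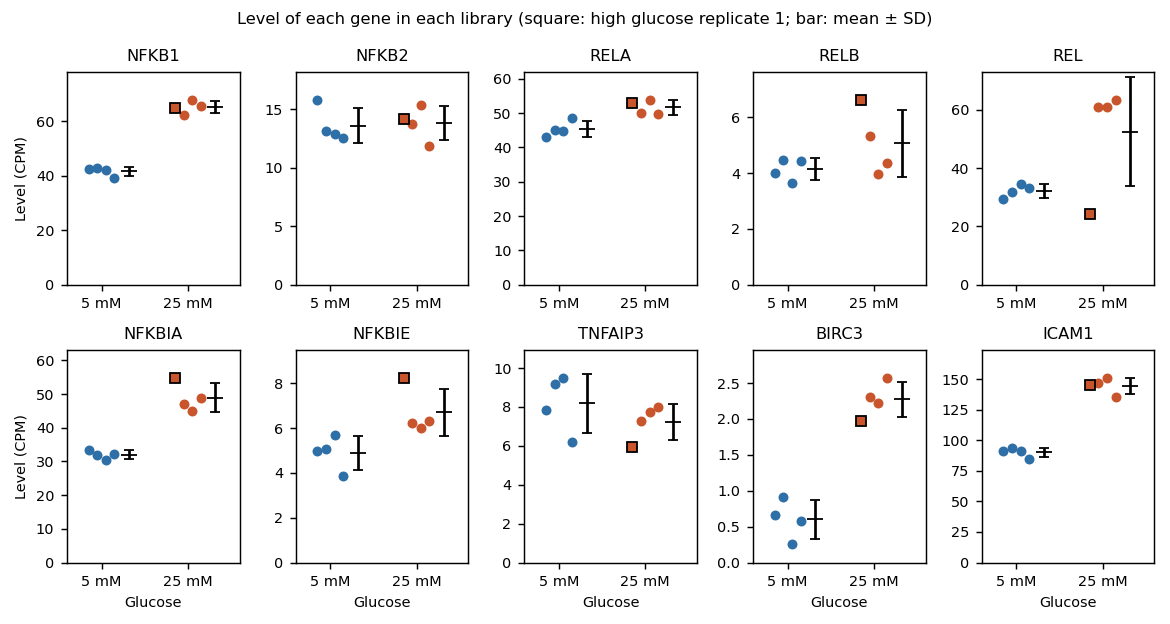
Level of each gene (CPM, axes from 0) in each library at 5 mM (blue) and 25 mM glucose (red), with mean ± SD of 4 libraries and high glucose replicate 1 as a square. The groups are apart for NFKB1, RELA, NFKBIA, NFKBIE, BIRC3 and ICAM1, and replicate 1 of REL, at 24.4 CPM, lies below all low glucose libraries.

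High glucose replicate 1 stood apart from its group, and its values are given beside the results they touch. Its difference from the mean of the other 3 high glucose libraries followed transcript length over 11223 genes of at least 5 CPM. On the log2(CPM + 1) scale, the median difference was 0.23 for transcripts under 2000 bases and -0.29 for those of 8000 bases or more. ESR1, the estrogen receptor, was at 3 reads or fewer in every library, and PGR, the progesterone receptor, was not called. The epithelial list (EPCAM, CDH1, KRT8, KRT18 and KRT19) summed to 360.0 to 375.7 CPM at low and 240.3 to 305.8 CPM at high glucose, with KRT8 (-0.57) and KRT18 (-0.46) lower, EPCAM (0.54) higher and KRT19 at 3 reads or fewer in every library. The mesenchymal list (VIM and CDH2) summed to 4115 to 4173 CPM at low and 2934 to 3357 CPM at high glucose, with VIM lower (-0.47) and CDH2 higher (0.44). The leukocyte markers PTPRC and LYZ were also at 3 reads or fewer in every library, while the list summed to 0.947 to 1.67 CPM at low and 2.93 to 5.93 CPM at high glucose, and CD14, a co-receptor for bacterial lipopolysaccharide, rose from 1.25 ± 0.337 to 4.24 ± 1.32 CPM. The endothelial list summed to 2.46 to 3.13 CPM at low and 1.75 to 2.84 CPM at high glucose. Its genes were at low levels, with PECAM1 (0.63) higher and CDH5 (-0.32) and VWF (-0.95) lower. The part of all these markers in the results was not tested.

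Among the subunits, NFKB1 (chr4:102501359-102617302 on GRCh38.p14), the p105 precursor of p50, had the clearest rise. Its level was 42.3, 42.9, 42.1 and 39.1 CPM in the low glucose libraries and 65.1, 62.4, 68.0 and 65.8 CPM in the high glucose libraries. Every high glucose library was thus well above every low glucose one, and replicate 1 was in the middle of its group. The mean rose from 41.6 ± 1.70 to 65.3 ± 2.29 CPM (SD, n = 4 each), which is 1.57-fold. The change was 0.64 on the log2(CPM + 1) scale (SE 0.038, 95% interval 0.55 to 0.73), with a limma adjusted p of 1.53e-05.

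RELA (chr11:65653601-65663857), the p65 subunit of the classical pair, rose by far less. It was at 43.2, 45.0, 44.8 and 48.7 CPM at low and 53.0, 49.98, 53.9 and 49.9 CPM at high glucose. The groups did not overlap, but the highest low glucose library lay close to the lowest high glucose ones. The mean rose from 45.4 ± 2.35 to 51.7 ± 2.09 CPM, or 1.14-fold, with a change of 0.18 (SE 0.044, 95% interval 0.079 to 0.29) and a limma adjusted p of 0.0119. An antisense gene, RELA-DT, overlaps an exon of RELA, and the use of strand in counting is not stated for these libraries. The CPM ratio of NFKB1 to RELA was 0.803 to 0.981 in the low glucose libraries and 1.23 to 1.32 in the high glucose libraries, without overlap.

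REL (chr2:60881574-60931612), which codes for c-Rel, gave the most divided values of the 10. The low glucose libraries were at 29.2, 31.7, 34.7 and 33.2 CPM. At high glucose, replicates 2 to 4 were at 60.8, 61.1 and 63.5 CPM, whereas replicate 1 was at 24.4 CPM, below every low glucose library. With all 8 libraries the change was 0.60 (SE 0.31, 95% interval -0.125 to 1.32) and the limma adjusted p was 0.158. Without high glucose replicate 1 the mean was 61.8 ± 1.46 CPM (n = 3), 1.92-fold the low glucose mean of 32.2 ± 2.32 CPM, with a change of 0.92 and a limma adjusted p of 5.88e-05. In that fit, 22.8% of all genes were called higher and 25.4% lower, and 6 of the 10 members were called higher, with REL gained and NFKBIE lost.

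A pair of features of the REL locus bear on how its level was counted. The canonical REL transcript is 11108 bases long, the longest of the 10, and coding transcripts of the gene range from 2406 to 11255 bases. Replicate 1 was lower than the other high glucose libraries by 1.30 on the log2(CPM + 1) scale for REL, more than for all but 1 of 1044 genes of 8000 bases or more. Over genes of any length, 3 of 11223 were lower still, PALM2-AKAP2, AC108010.1 and AC091959.3, which were named after their values were seen. In addition, 52.3% of the 31-base words of the REL transcript also occur in another gene, and AC010733.2, on the same strand, overlaps its exons, so reads could be split between the 2 entries.

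The reads given to REL were not whole numbers, by up to 0.46 of a read, nor were those of ICAM1, by up to 0.34. For the other 8 of the 10 genes all values were whole within 0.01 of a read. AC010733.2 was at 19.2, 15.6, 14.8 and 17.6 CPM at low and 30.8, 30.8, 35.8 and 36.6 CPM at high glucose, with replicate 1 inside its group. It rose by 0.96 (SE 0.098, limma adjusted p 2.00e-04). Summed, the 2 entries gave 47.3 to 50.8 CPM at low glucose, 55.2 CPM in high glucose replicate 1 and 91.6 to 100.1 CPM in replicates 2 to 4. In the sum, replicate 1 thus lay above the low glucose libraries and far below its own group. Why replicate 1 is low for REL was not tested.

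**Figure D2:**
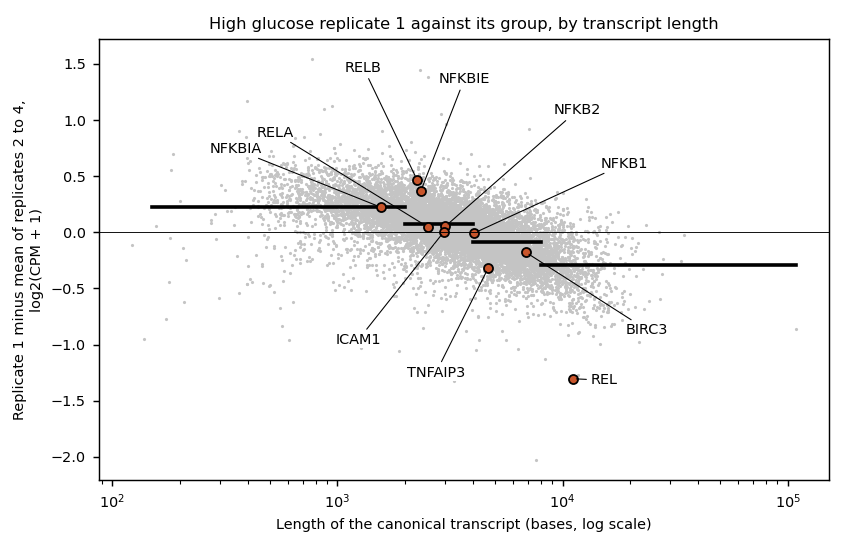
Difference of high glucose replicate 1 from the mean of replicates 2 to 4 (log2(CPM + 1)) against canonical transcript length (bases, log scale) for genes of at least 5 CPM (grey) and the 10 genes (red), with the median of each length class as a black line. The medians fall from 0.23 for the shortest to -0.29 for the longest transcripts, and REL lies far below them.

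The subunits of the alternative arm did not pass the test. NFKB2 (chr10:102394110-102402529), the p100 precursor of p52, was at 15.8, 13.2, 12.9 and 12.5 CPM at low and 14.2, 13.8, 15.4 and 11.9 CPM at high glucose. The groups overlapped fully, and the change was 0.021 (95% interval -0.21 to 0.25, limma adjusted p 0.915). RELB (chr19:45001464-45038192), the usual partner of p52, was at 4.00, 4.47, 3.65 and 4.44 CPM at low and 6.63, 5.34, 3.96 and 4.36 CPM at high glucose. Replicate 1 was its highest library, the groups overlapped, and the change was 0.22 (95% interval -0.12 to 0.57, limma adjusted p 0.261), or 0.11 without replicate 1. These intervals leave room for a rise or fall of either gene, and that of RELB reaches nearly the change of NFKBIA, 0.59.

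Divided by transcript length, RELA was the most abundant subunit in every library, and RELB the least except in high glucose replicate 1, where REL was. At low glucose, RELA was at 18.0 CPM per kilobase, NFKB1 at 10.3, NFKB2 at 4.51, REL at 2.90 and RELB at 1.83, and no neighbours in this order overlapped between libraries. Of the summed level per length of the 5 subunits, NFKB1 made up 25.3% to 28.1% in the low and 32.3% to 34.2% in the high glucose libraries. RELA made up 46.0% to 50.8% and 41.6% to 44.9%, and NFKB2 10.9% to 14.1% and 8.30% to 10.1%. The share of NFKB1 was therefore higher, and those of RELA and NFKB2 lower, in every high glucose library. REL made up 7.06% to 8.39% at low glucose, 4.68% in high glucose replicate 1 and 10.9% to 12.0% in replicates 2 to 4, with its length taken as that of the canonical transcript. These shares are descriptions of transcripts and were not tested.

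**Figure D3:**
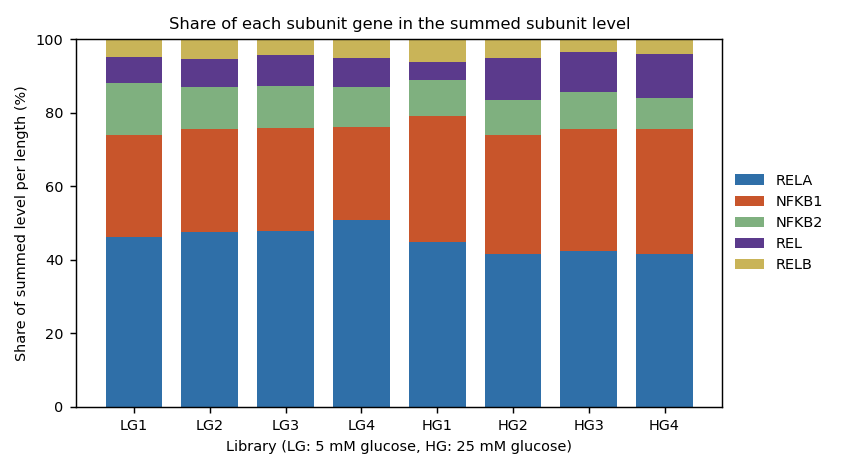
Share (%) of each subunit gene in the summed level per transcript length, in each library (LG, 5 mM glucose; HG, 25 mM glucose). NFKB1 takes 32.3% to 34.2% in the high against 25.3% to 28.1% in the low glucose libraries, and REL is smallest, at 4.68%, in HG1.

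Of the inhibitors, NFKBIA (chr14:35401513-35404749), which codes for IkappaB-alpha, the inhibitor that pulls the factor out of the nucleus, rose most clearly. It was at 33.4, 31.97, 30.4 and 32.3 CPM at low and 54.9, 47.0, 45.1 and 48.7 CPM at high glucose. Replicate 1 was the highest of its group, and even the lowest high glucose library was above all of the low glucose ones. The mean rose from 32.04 ± 1.25 to 48.9 ± 4.26 CPM, or 1.53-fold, with a change of 0.59 (SE 0.062, 95% interval 0.45 to 0.74) and a limma adjusted p of 2.30e-04. Without replicate 1 the change was 0.54. The CPM ratio of NFKBIA to RELA was 0.664 to 0.774 at low and 0.836 to 1.04 at high glucose, without overlap. The ratio of NFKBIA to NFKB1 overlapped, at 0.722 to 0.827 and 0.664 to 0.844.

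NFKBIE (chr6:44258166-44265551), which codes for IkappaB-epsilon, was at a lower level and closer to the threshold. It was at 5.00, 5.05, 5.69 and 3.86 CPM at low and 8.26, 6.22, 6.02 and 6.31 CPM at high glucose. The groups did not overlap, but replicate 1 stood above the rest of the high glucose group. The mean rose from 4.90 ± 0.762 to 6.70 ± 1.05 CPM, or 1.37-fold, with a change of 0.38 (SE 0.13, 95% interval 0.074 to 0.69) and a limma adjusted p of 0.0475. Leaving out any single library except low glucose replicate 3 ended the call, with adjusted p of 0.0606 to 0.0969 and changes of 0.29 to 0.43. Without high glucose replicate 1 the change was 0.29 (adjusted p 0.0855).

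TNFAIP3 (chr6:137866349-137883312), which codes for A20, an enzyme that trims ubiquitin chains to end signalling, did not pass the test. It was at 7.84, 9.19, 9.51 and 6.19 CPM at low and 5.93, 7.25, 7.75 and 7.999 CPM at high glucose. The groups overlapped, and the change was -0.15 (95% interval -0.49 to 0.19, limma adjusted p 0.446). Single libraries moved this value, to -0.068 without high glucose replicate 1, -0.094, -0.079 and -0.26 without low glucose replicates 2, 3 and 4. The CPM ratio of TNFAIP3 to NFKBIA was 0.191 to 0.313 at low and 0.108 to 0.172 at high glucose, and so was lower in every high glucose library. An exon of the antisense gene WAKMAR2 overlaps TNFAIP3.

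The targets BIRC3 and ICAM1 both rose, from opposite ends of the range of expression. BIRC3 (chr11:102317484-102339403), which codes for cIAP2, a ubiquitin ligase that blocks cell death, was the least expressed of the 10. It was at 0.667, 0.911, 0.255 and 0.583 CPM at low glucose, or 8, 11, 3 and 8 reads. At high glucose it was at 1.98, 2.31, 2.23 and 2.58 CPM, or 28, 29, 27 and 29 reads. The groups did not overlap. The mean rose from 0.604 ± 0.271 to 2.27 ± 0.248 CPM, 3.76-fold, and the change on the log2(CPM + 1) scale, which understates low genes, was 1.04 (SE 0.13, 95% interval 0.73 to 1.35, limma adjusted p 5.47e-04). With 30 reads in all at low glucose, the size of this fold is loosely set.

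ICAM1 (chr19:10271120-10286615), a surface protein that binds leukocyte integrins, was the most abundant of the 10. It was at 91.4, 93.6, 91.3 and 84.9 CPM at low and 144.8, 146.8, 151.3 and 135.6 CPM at high glucose. The groups were far apart and each was tight. The mean rose from 90.3 ± 3.74 to 144.6 ± 6.59 CPM, or 1.601-fold, with a change of 0.67 (SE 0.043, 95% interval 0.57 to 0.77) and a limma adjusted p of 2.06e-05. Antisense genes overlap exons of both targets. For all 10 genes, a bulk level cannot tell more cells with a transcript from more of it in each cell.

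**Figure D4:**
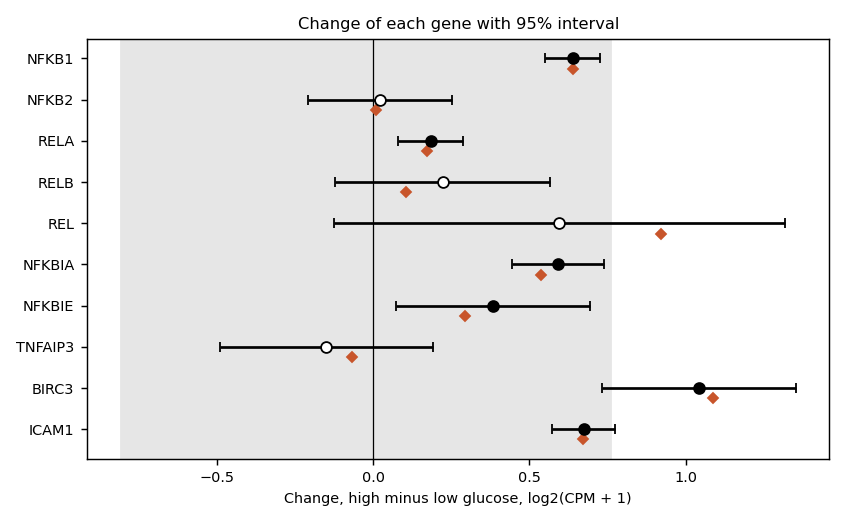
Change of each gene (high minus low glucose, log2(CPM + 1)) with its 95% interval, filled where the adjusted p was under 0.05, with the value without high glucose replicate 1 as a red diamond. The grey band runs from percentile 5 to percentile 95 of all genes, -0.81 to 0.76, and setting the library aside moves REL from 0.60 to 0.92.

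Per length, the order over all 10 genes at low glucose was ICAM1 (30.4 CPM per kilobase), NFKBIA (20.5), RELA (18.0), NFKB1 (10.3), NFKB2 (4.51), REL (2.90), NFKBIE (2.09), RELB (1.83), TNFAIP3 (1.75) and BIRC3 (0.0878). Libraries of NFKBIE, RELB and TNFAIP3 overlapped, so these neighbours did not differ beyond their spread, and the other neighbours did not overlap. At high glucose, ICAM1 was at 48.7, NFKBIA at 31.4, RELA at 20.5 and NFKB1 at 16.1 CPM per kilobase, in the order they had at low glucose. REL, at 5.47 to 5.71 CPM per kilobase in replicates 2 to 4, was then above NFKB2, at 3.95 to 5.12, and at 2.20 in replicate 1 below it.

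The rest of the pathway was described with 5 further lists of 110 genes, of which 103 were in the table. In all, 57 were called, 40 higher and 17 lower, beside 46.8% of all genes called, 22.0% higher and 24.8% lower. Silent genes lower these shares, and in the fit of 11297 genes of at least 5 CPM, 8120 were called, 4043 higher (35.8%) and 4077 lower. That fit called 9 of 15 receptors and adaptors and 15 of 20 kinases and ubiquitin ligases. It also called 15 of 16 other inhibitors and brakes and 15 of 17 other target genes, and no ligand reached that level. The counts of each list are to be read against these shares. The 8 ligands of the table, among them TNF, IL1A and IL1B, were nearly silent, with IL1A, IL1B, TNFSF11 and TNFSF12 at 3 reads or fewer in every library and TNF at no more than 0.495 CPM in high glucose replicate 3. None of the ligands was called by limma, or reached an unadjusted p under 0.05.

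Receptors and adaptors moved both ways, with 5 of 24 higher and 5 lower and a median change of 0.00010. Without low glucose replicate 1, 5 were higher and 3 lower, and among genes of at least 5 CPM 6 were higher and 3 lower. Without high glucose replicate 1, 6 were higher and 6 lower, and with a block for replicate number 4 were higher and 5 lower. IL1RAP, the shared co-receptor of the interleukin-1 family, rose from 25.9 ± 1.77 to 64.3 ± 6.43 CPM, a change of 1.27 (limma adjusted p 1.93e-05). IRAK2, a kinase-like adaptor below that receptor, rose from 17.7 ± 0.847 to 32.6 ± 1.22 CPM, and TNFRSF12A, the receptor of the TNF family ligand TWEAK, from 56.6 ± 0.433 to 101.6 ± 12.0 CPM. TLR2, which binds bacterial lipoproteins, rose from 7.81 ± 0.787 to 12.1 ± 1.06 CPM. TNFRSF1A, the main receptor for TNF, fell from 33.3 ± 1.11 to 23.0 ± 0.876 CPM, a change of -0.52 (limma adjusted p 3.34e-05). CD40 and TLR4 were at 3 reads or fewer in every library.

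Of the list of kinases and ubiquitin ligases of the pathway, which also holds their partner proteins, 10 of 22 genes were higher and 6 lower, with a median change of 0.085. CHUK, which codes for IKK-alpha, rose from 34.2 ± 1.30 to 57.1 ± 2.30 CPM, a change of 0.72 (limma adjusted p 9.65e-06). The other catalytic subunit of the same kinase, IKBKB, fell from 40.0 ± 2.69 to 32.9 ± 1.99 CPM, a change of -0.27 (limma adjusted p 0.00854), and the scaffold IKBKG, with 53.7% of its words shared with other genes, was not called. TAB2, which bridges ubiquitin chains to the kinase TAK1, rose from 77.1 ± 3.32 to 119.4 ± 8.52 CPM, while TAB1, an activator of TAK1, fell from 21.4 ± 0.483 to 10.7 ± 0.923 CPM.

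The 3 entries for the linear ubiquitin ligase complex were lower at high glucose. RBCK1 fell from 52.4 ± 0.764 to 34.8 ± 5.00 CPM, SHARPIN from 28.2 ± 1.67 to 17.2 ± 3.12 CPM and RNF31, its catalytic subunit, from 16.3 ± 2.07 to 10.7 ± 1.74 CPM. Their changes were -0.59, -0.69 and -0.57 with limma adjusted p of 0.00220, 0.00243 and 0.00900. Over all genes, 24.8% were called lower. High glucose replicate 1 was the highest of its group for RBCK1 and SHARPIN but the lowest for RNF31. Of the 31-base words of RNF31, 98.6% also occur in other genes, and ENSG00000259529 overlaps its exons on the same strand, so its level is uncertain. RBCK1 and SHARPIN share no words, but genes on the other strand overlap their exons. These are TBC1D20 for RBCK1 and MAF1 and WDR97 for SHARPIN, and the use of strand in counting is not stated. The genes IKBKB, IKBKG and RNF31 and the grouping as a complex were picked after their values were seen.

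Of the other inhibitors and brakes, 11 of 18 were higher and 3 lower, with a median change of 0.20. The largest change of any pathway gene named here was that of NFKBIB, which codes for IkappaB-beta. It was at 35.2, 31.8, 31.9 and 32.7 CPM at low and 148.2, 133.1, 143.0 and 131.0 CPM at high glucose, a change of 2.04 (SE 0.050, limma adjusted p 8.40e-07). The groups were far apart in every library. NFKBIB shares exon sequence, on the other strand, with SIRT2, which was at 176.7 to 182.0 CPM at low and 156.0 to 196.9 CPM at high glucose and was not called (adjusted p 0.491).

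CYLD, which removes ubiquitin chains, rose from 20.3 ± 0.681 to 34.4 ± 1.23 CPM. The small GTPases NKIRAS1 and NKIRAS2, which bind IkappaB proteins, went opposite ways, with NKIRAS1 up from 13.4 ± 1.16 to 20.6 ± 1.97 CPM and NKIRAS2 down from 49.6 ± 1.25 to 33.1 ± 2.69 CPM. Genes on the other strand overlap exons of both, RPL15 and UBE2E1 for NKIRAS1 and DNAJC7 and ZNF385C for NKIRAS2. PDLIM2, which helps to remove nuclear RELA, fell from 10.6 ± 0.374 to 6.41 ± 1.47 CPM, with 26.8% of its 31-base words shared with other genes. The limma adjusted p of these 4 genes was 6.79e-06 for CYLD, 9.65e-04 for NKIRAS1, 1.46e-04 for NKIRAS2 and 0.00477 for PDLIM2.

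Of 31 further target genes in the table, 14 were higher and 3 lower, with a median change of 0.24. The secreted IL6 rose from 3.57 ± 0.542 to 11.4 ± 1.02 CPM, CXCL8 from 4.34 ± 0.505 to 11.1 ± 1.49 CPM and CXCL1 from 7.41 ± 1.04 to 17.3 ± 1.94 CPM, the last with 15% of its words shared with other genes. GADD45B, which restrains stress kinase signalling, rose from 17.4 ± 0.820 to 49.9 ± 6.07 CPM, a change of 1.46 (limma adjusted p 1.50e-05). CX3CL1, a membrane-bound chemokine, fell from 8.58 ± 0.488 to 3.07 ± 0.428 CPM, a change of -1.24 (limma adjusted p 4.06e-05). CCL20, CSF2, SELE, PTGS2 and TRAF1 were at 3 reads or fewer in every library. Each list was chosen with results of these data known, and its counts describe its genes and do not set them against other genes.

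**Figure D5:**
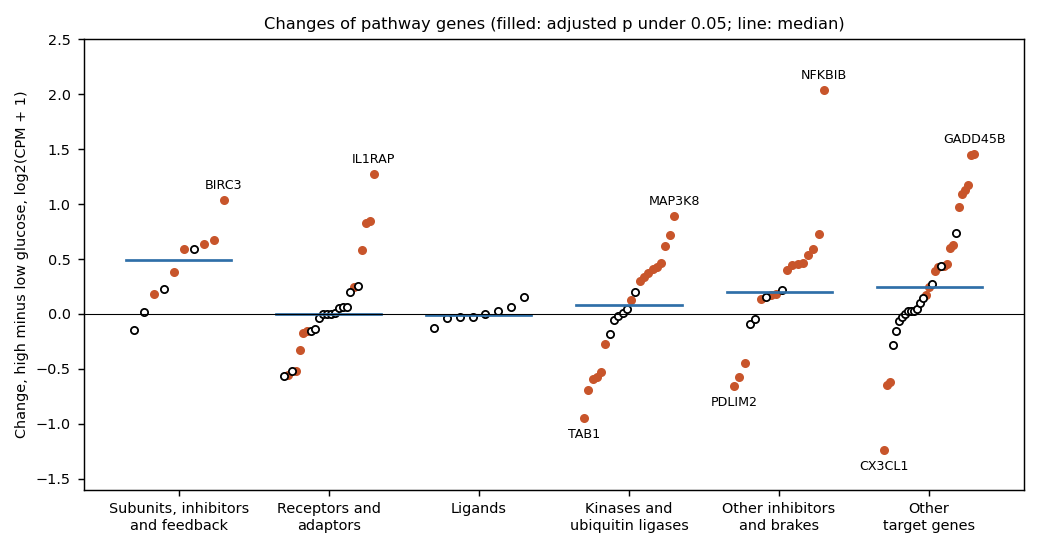
Change (high minus low glucose, log2(CPM + 1)) of every gene of the 10 and of the 5 pathway lists, 1 point a gene, filled where the adjusted p was under 0.05, with list medians as blue lines and the outermost called genes named. The medians are 0.49 for the 10 genes, 0.00010 for receptors and adaptors, -0.013 for ligands, 0.085 for kinases and ubiquitin ligases, 0.20 for other inhibitors and 0.24 for other targets.

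By the root mean square difference over the 8 libraries, each gene taken relative to its own low glucose mean on the log2(CPM + 1) scale, 11297 genes of at least 5 CPM were set against BIRC3, the member that rose most. Among the nearest were SNX16 (0.097) and LINC01128 (0.104). SNX16 went from 21.6 ± 1.97 to 45.9 ± 2.02 CPM. This scale understates the change of BIRC3, which rose 3.76-fold from 0.604 ± 0.271 CPM, so a near gene need not have a like fold. Nearest to TNFAIP3, whose estimate was the lowest of the 10 and did not pass the test, were ZNF716 (0.068), MBLAC2 (0.085) and RANBP10 (0.086).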

How the data were processed

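RNA sequencing of MDA-MB-157 cells gave 8 libraries, 4 for each glucose level. Groups and replicate numbers are those of the labels. Levels were deposited as 1 table in CPM, read counts scaled by the authors to a common library size with edgeR, and the submitters' processing notes name the hg38 build. Trimming, alignment and a low count filter are described by the study for tumors, and the counting tool and its use of strand are not given in the sources used here. The table holds no raw counts, and only 72.0% to 73.3% of its values were whole multiples of 1 read, so no count test was run. Depth was estimated as each column's sum divided by the value of 1 read, and covers counting error only. The floor was set at 3 reads, or 0.212 to 0.267 CPM. Of 21077 lines, 18 were Y copies of pseudoautosomal genes identical to the X copies and were left out.

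Values were compared as log2(CPM + 1) with limma 3.58.1 in R 4.3.3 (lmFit, eBayes with trend, 2-sided, no covariate), adjusted by the Benjamini-Hochberg method over 21059 genes at a threshold of 0.05. The steps were tested on simulated data. The alternatives were a pseudocount of 0.1, genes of at least 5 CPM only, median-of-ratios scaling, quantile normalization, no trend, removal of a length trend, a replicate block and leaving out each library. The members and lists were chosen with earlier results of these data known. From each list at most 5 genes are named, by largest absolute change among called genes whose groups did not overlap and whose mean reached 5 CPM, plus those at 3 reads or fewer in every library. For BIRC3 and TNFAIP3, the 3 genes nearest in pattern were also selected, and 1 of the genes so selected is not reported here. Coordinates and promoters are from RefSeq on GRCh38.p14, and lengths, overlaps and shared 31-base words from GENCODE 44 transcripts mapped to GRCh37.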

Additional observations from a re-analysis of the deposited data

Results flagged for a closer look

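In 7 of 70 groups of 4 libraries (35 named genes, both glucose levels), 1 library lay far from the rest by Dixon's ratio of its gap to the range, above the 95% critical value, and chance alone gives about 3.5 such groups.

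Of the 10 genes, REL in high glucose replicate 1 was at 24.4 CPM beside 60.8 to 63.5 CPM in the others (ratio 0.932). NFKBIE in the same library was at 8.26 CPM beside 6.02 to 6.31 CPM (ratio 0.871). The same library was also apart for PDLIM2, at 8.61 CPM beside 5.51 to 5.86 CPM (ratio 0.888), and for VIM, at 3282 CPM beside 2856 to 2869 CPM (ratio 0.969). In low glucose replicate 4, TLR2 was at 6.63 CPM beside 8.17 to 8.24 CPM (ratio 0.956). In low glucose replicate 1, CYLD was at 21.3 CPM beside 19.9 to 20.1 CPM (ratio 0.835). In high glucose replicate 4, CDH2 was at 78.2 CPM beside 74.5 to 74.7 CPM (ratio 0.944).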

How the results depend on the processing

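The 105 counts of called genes, summed over both directions, stayed within 1.5 times the reported count. Those of ligands were 0 in every fit. The count of the 10 genes, reported as 6, reached this bound at 4 with the replicate block. Of 148 recomputed changes of the 10 genes, 133 kept their direction and their side of the threshold. REL passed the test among genes of at least 5 CPM (0.60, adjusted p 0.0381), with the length trend removed (0.60, adjusted p 0.0206) and without high glucose replicate 1 (0.92, adjusted p 5.88e-05). NFKBIE lost its call in 7 of 8 fits that left out a library. The NFKB2 change turned negative in 3 of them, within a range of -0.030 to 0.091. The cause was not tested. Replicate numbers did not pair the libraries (correlations of same-numbered libraries -0.040 to 0.069). With the replicate block, 4 of the 10 genes were called, and RELA (0.18, adjusted p 0.058) and NFKBIE (0.38, adjusted p 0.0836) were not. Depth limits BIRC3, with 3 to 11 reads per low glucose library.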
